A study of Mus musculus with 34 samples.

Results

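MOSJ-Dkk-1 cells, a mouse osteosarcoma line, were compared between nutritional stress and log phase of growth without any morpholino (NT). The comparison rests on 6 of the 34 RNA sequencing samples of the series, chosen by their labels: 3 under nutritional stress and 3 in log phase. MOSJ-Dkk-1 is a single cell line, labelled with red fluorescent protein, that carries a lentiviral vector from which the cytomegalovirus promoter drives human Dkk-1, a secreted inhibitor of canonical Wnt signalling. All groups used here share that transgene, so no culture without Dkk-1 entered the comparison. Log phase cultures started at 500 cells per cm2 and grew for 6 days with fresh medium every 2 days. In the nutritional stress groups, seeded at that density too, the medium was left unchanged for 4 days and the cells spent 48 h at confluence. Confluence, exhausted medium and age of the culture therefore came together, and their parts in a change cannot be told apart. In all groups the cells were detached with trypsin, washed and frozen before polyadenylated RNA was sequenced. Beside the NT cultures stand 3 log phase and 3 stressed samples each with DkkMo, a vivo morpholino against Dkk-1, or with its mismatched control scrMo, both at 5 µM and added 24 h after seeding. These 12 samples served only to set the same change of culture condition beside that of the NT cultures.

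Cells that fill their dish and use up their medium are known to leave the cell cycle, since growth factors, amino acids and free surface all limit the entry into S phase. Withdrawal from the cycle is classically accompanied by lower expression of the genes for DNA replication and mitosis, which E2F factors and the DREAM complex keep in step. Misfolded proteins release heat shock factor 1 from chaperones, and the factor then binds to heat shock elements in front of chaperone genes. Interferon-stimulated genes answer to interferon at response elements of their own, and a steady low interferon signal keeps many of them on in cultured cells.

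The 6 NT libraries held between 33.8 M and 44.8 M reads on the listed genes, with a mean of 37.7 M under stress and 38.3 M in log phase (exact permutation test, two-sided, p = 0.9, where 3 against 3 cannot give a p below 0.1). Spearman correlations within either group lay between 0.9964 and 0.9977 across genes. Under stress, genes of the mitochondrial genome took 1.60% ± 0.06 (SD, n = 3) of the reads on the listed genes against 2.38% ± 0.09 in log phase, without overlap between the groups. The mitochondrial genes mt-Nd4, mt-Nd4l, mt-Co3 and mt-Atp6 had no value and are left out of all such shares given here. One log phase library, replicate 1, stood apart from the others. Chi-square per degree of freedom, which grows with spread beyond counting noise, was 16.3 and 15.1 for its pairs with replicates 2 and 3. The pair of replicates 2 and 3 gave 4.65. In replicate 1, 28 genes lay over 1.5-fold above both other log phase libraries, against 3 and 4 such genes in replicates 2 and 3. Values without log phase replicate 1 are given beside the lists and genes that it moved most. The labels do not say whether the replicates came from separate cultures, so p values measure the spread between these samples.

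Marker lists were read as a check on the identity of the cells. Of 10 osteoblast markers 8 had a value, while Sp7 and Ibsp, which mark committed osteoblasts, had none, and their summed normalized counts, which are reads divided by a size factor per library, were 246593 to 278531 in log phase and 75580 to 82075 under stress. Chondrocyte markers had values for 3 of 8, with Acan, Col9a1 and Comp among those without one, and summed to 4772 to 5903 in log phase and 8692 to 9269 under stress, nearly all of it Sox9. Macrophage and osteoclast markers had values for 7 of 11 and summed to 1231 to 1359 and 2263 to 2577, of which Cd68, a lysosomal membrane protein, made up the rise from 391 to 406 normalized counts in log phase to 1299 to 1511 under stress, and Adgre1, Itgam, Tyrobp and C1qa had no value. Endothelial markers had values for 2 of 7, Vwf and Pecam1, and summed to 308 to 327 and 1302 to 1336. Vwf, which encodes von Willebrand factor, was at 30.2, 24.9 and 28.3 normalized counts in log phase and at 996, 1005 and 1012 under stress, while Cdh5, Kdr and Tek had no value. None of 8 lymphocyte markers had a value, and the single measured epithelial, adipocyte and erythroid markers and 2 muscle markers were not DE. The table also has no value for some genes that most cells express, such as Calr, Pcna, Rps7 and Rpl24, so a missing value does not show that a marker was not expressed. Whether other cell types took part in any change was not tested.

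Of 16562 genes tested, 3000 were differentially expressed (DE) between nutritional stress and log phase NT, which is 18.1%. DE means an adjusted p below 0.05 in limma and a difference of over 1.5-fold between the group means of the deposited log2 values. Under stress 1361 DE genes were higher (8.22% of the genes tested) and 1639 were lower (9.9%). The libraries of the groups did not overlap in 74.6% of all genes, 35.8% higher and 38.8% lower under stress, nor in any of the 3000 DE genes. On the deposited scale falls were more extreme than rises, with 639 genes lower and 348 genes higher by over 2-fold, and 100 lower and 32 higher by over 4-fold. The median gene differed by -0.01 on the log2 scale and the quartiles of all genes lay at -0.25 and 0.22. The split of the DE genes depends on the scaling: 45.4% were higher with the size factors of the authors, whereas centring each library on its median gene raised every difference by 0.16 and made 66.7% of 3364 DE genes higher. All values below are relative to the authors' size factors. Counts of DE members in a list are to be read beside the shares of all genes, 8.22% higher and 9.9% lower. In bulk RNA, fewer cells of a kind and less RNA per cell cannot be told apart.

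**Figure D1:**
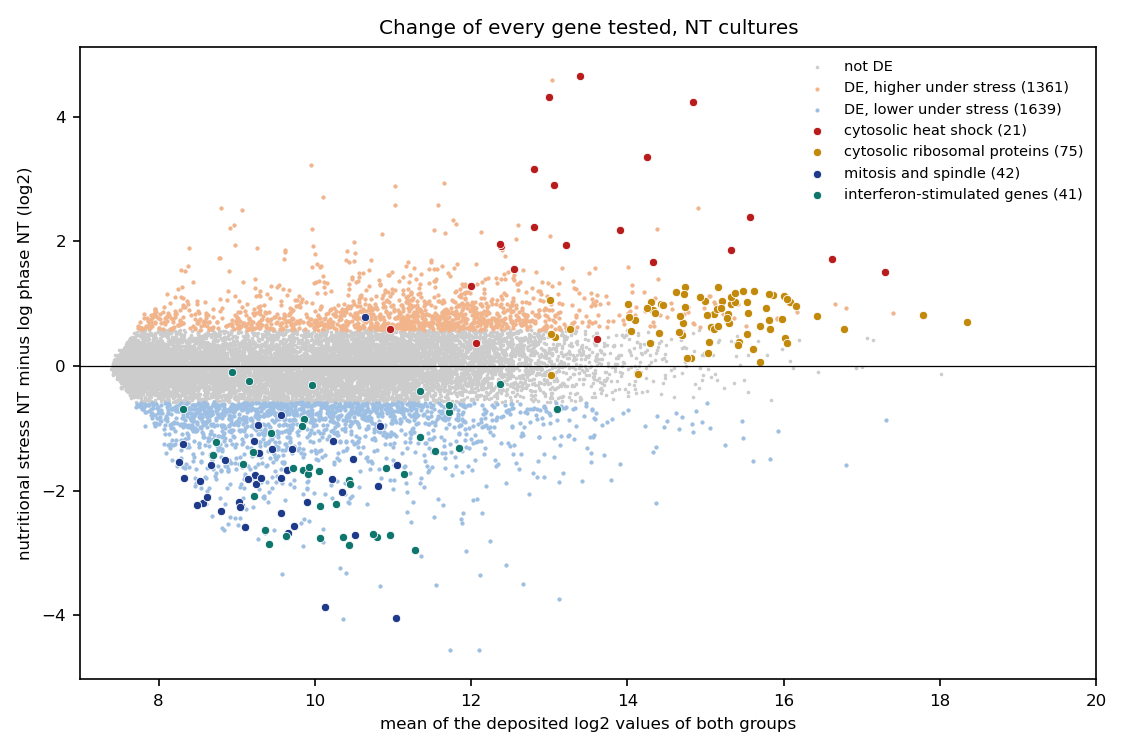
Difference between nutritional stress NT and log phase NT (y axis, log2) against the mean deposited log2 value of both groups (x axis) for each of 16562 genes. Each point is 1 gene, pale orange and pale blue points are DE, and dark points mark 4 gene lists: heat shock and ribosomal protein genes lie above 0 at high expression, mitotic and interferon-stimulated genes below 0 at lower expression.

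The deposited values flatten differences at low counts, so the ratio of mean normalized counts is given beside the log2 difference where it matters. Vwf shows the size of this effect, with a difference of 2.50 on the log2 scale and 36.1 times the normalized counts of log phase.

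Heat shock genes gave the largest rises on the deposited scale, whereas in ratios of normalized counts low genes such as Vwf rose more. Of 22 listed chaperones, co-chaperones and heat shock factors 21 had a value, and 19 rose while none fell, with a median difference of 1.95 and a range from 0.37 to 4.66. By background, 8.22% of all genes rose. The summed normalized counts of the list were 261890 to 268774 in log phase and 1040999 to 1221784 under stress. Among the 10 largest rises of the whole comparison, predicted genes left out, 7 were chaperone or co-chaperone genes: Hspa1b, Hspb1, Hsph1, Dnaja1, Dnajb1, Bag3 and Dnaja4.

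Hspa1b (chr17:34956436-34959238, minus strand), which encodes the inducible HSP70, had 3004, 1737 and 1206 normalized counts in log phase and 45654, 62162 and 55595 under stress. This is 27.5 times the log phase level, a difference of 4.66 ± 0.24 (SE) with an adjusted p of 2.99e-12. Its near-identical neighbour Hspa1a had no value, and Gm20481, annotated on the opposite strand inside Hspa1a at chr17:34969912-34972136, changed by 4.60. Reads of these genes cannot be told apart here.

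Hspb1, the small heat shock protein HSP27, rose from 1843, 1285 and 1528 to 30608, 42202 and 36413 normalized counts (4.32 ± 0.16). Hsph1, the HSP110 that recharges HSP70 with nucleotide, rose from 6653, 6070 and 6659 to 114887, 141302 and 126116 (4.24 ± 0.14, 19.7 times). The J-domain co-chaperones that deliver clients to HSP70 rose as well. Dnaja1 went from 5703 to 5866 up to 57469 to 68151 (3.36), Dnajb1 from 1825 to 2565 up to 18872 to 23333 (3.16) and Dnaja4 from 562 to 601 up to 4338 to 5288 (2.59). Bag3, a nucleotide exchange factor that links HSP70 to selective autophagy, rose 8.22 times (2.91 ± 0.10). In each of these genes the lowest stressed library lay above the highest log phase library, which was a condition for the largest rises. The 2 measured members that were not DE were Hspa4 (0.43) and Hsf1 (0.37), the heat shock factor itself, and the other factor, Hsf2, rose by 0.59. Hsp90aa1 and Hsp90ab1, the inducible and the constitutive HSP90, rose by 2.39 and by 2.84 times in normalized counts.

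Promoters of 2 heat shock genes are shown because they hold the heat shock element with 3 inverted units, searched on both strands as GAA and its reverse complement TTC in turn with 2 free bases (N) between the units. This element was added to the motifs searched once the heat shock genes had been seen to rise. Sequences are from RefSeq on GRCm38.p6 and run 5′ to 3′ on the strand of the gene, from 250 bases before to 50 bases after its start. Capitals mark the element, which lies after the start in Hsph1 and before it in Hspe1. Hsph1 lies on the minus strand at chr5:149636266-149636565 and Hspe1, the mitochondrial HSP10, on the plus strand at chr1:55087898-55088197, where it shares its promoter with the divergent gene of its partner HSP60, Hspd1.
Hsph1: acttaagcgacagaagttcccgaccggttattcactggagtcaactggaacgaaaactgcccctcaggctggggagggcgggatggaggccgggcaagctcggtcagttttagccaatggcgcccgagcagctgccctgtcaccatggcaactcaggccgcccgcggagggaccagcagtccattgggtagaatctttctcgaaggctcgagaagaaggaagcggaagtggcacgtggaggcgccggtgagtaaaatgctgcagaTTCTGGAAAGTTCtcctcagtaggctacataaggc
Hspe1: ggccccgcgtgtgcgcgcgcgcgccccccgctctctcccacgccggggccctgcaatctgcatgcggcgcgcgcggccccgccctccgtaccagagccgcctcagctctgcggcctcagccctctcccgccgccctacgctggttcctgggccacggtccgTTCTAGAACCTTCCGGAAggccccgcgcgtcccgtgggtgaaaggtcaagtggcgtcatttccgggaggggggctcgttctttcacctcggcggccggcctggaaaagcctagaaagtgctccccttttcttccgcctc
Letters of a 3-unit element stood in 4 of the 16 heat shock genes with a promoter in the table (Hsph1, Hspe1, Hspd1 and Chordc1), against 0.662% of all 27025 genes in it. The shorter element of 2 units, GAA before TTC, which every longer one contains, stood in 9 of the 16 and in 9.04% of all genes. Hspe1 rose by 2.19 and Hspd1 by 1.87. A match is a description of letters and not a bound site.

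Genes of the unfolded protein response of the endoplasmic reticulum were mostly not DE. Of 24 measured members 3 rose and none fell, with a median of 0.15, which was 0.00 with quantile normalization, where 2 fell. Of all genes 8.22% rose and 9.9% fell. Dnajb9, an ER co-chaperone, rose from 2861, 1841 and 1882 to 7460, 7096 and 7252 (1.63 ± 0.13), Selenok, an ER selenoprotein, by 0.82, and Xbp1, the factor spliced by IRE1, by 0.80. The main ER chaperone BiP, encoded by Hspa5, differed by -0.09 and was not DE. Log phase replicate 1 was high for this list, at a sum of 498983 against 309419 and 333821, and without it the median was 0.31 and 7 members rose in place of 3.

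Genes driven by ATF4, the factor of amino acid shortage, did not move together. Of 41 measured members 3 rose and 8 fell, with a median of -0.09 that changed to 0.07 on centring each library on its median. Of all genes 8.22% rose and 9.9% fell. Without log phase replicate 1 the median was -0.01, with 5 higher and 7 lower. Atf3, a stress-induced repressor, rose from 1445, 830 and 753 to 6395, 8064 and 7253 (2.58 ± 0.16), and Slc7a11, the cystine importer, from 2623 to 3307 up to 7153 to 8633 (1.33 ± 0.11). The neutral amino acid carriers Slc1a4 and Slc1a5 fell by 1.07 and 1.00. None of 10 measured aminoacyl-tRNA synthetase genes was DE, and Asns, which encodes asparagine synthetase, differed by 0.11 and was not DE.

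AP-1 and immediate early genes had 30 measured members, of which 10 rose and 1 fell, against 8.22% and 9.9% of all genes. Maff, a small MAF protein, rose from 1615 to 2078 up to 5806 to 6281 (1.63 ± 0.10) and Phlda1, a pleckstrin-like protein, from 8601 to 10035 up to 26812 to 29573 (1.60). Jun fell by 0.72 to 5707, 6294 and 5806 normalized counts, and this fall was not DE on centring each library on its median. The dual-specificity phosphatase genes Dusp4 and Dusp5, which dampen MAP kinases, rose by 1.58 and 1.25.

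**Figure D2:**
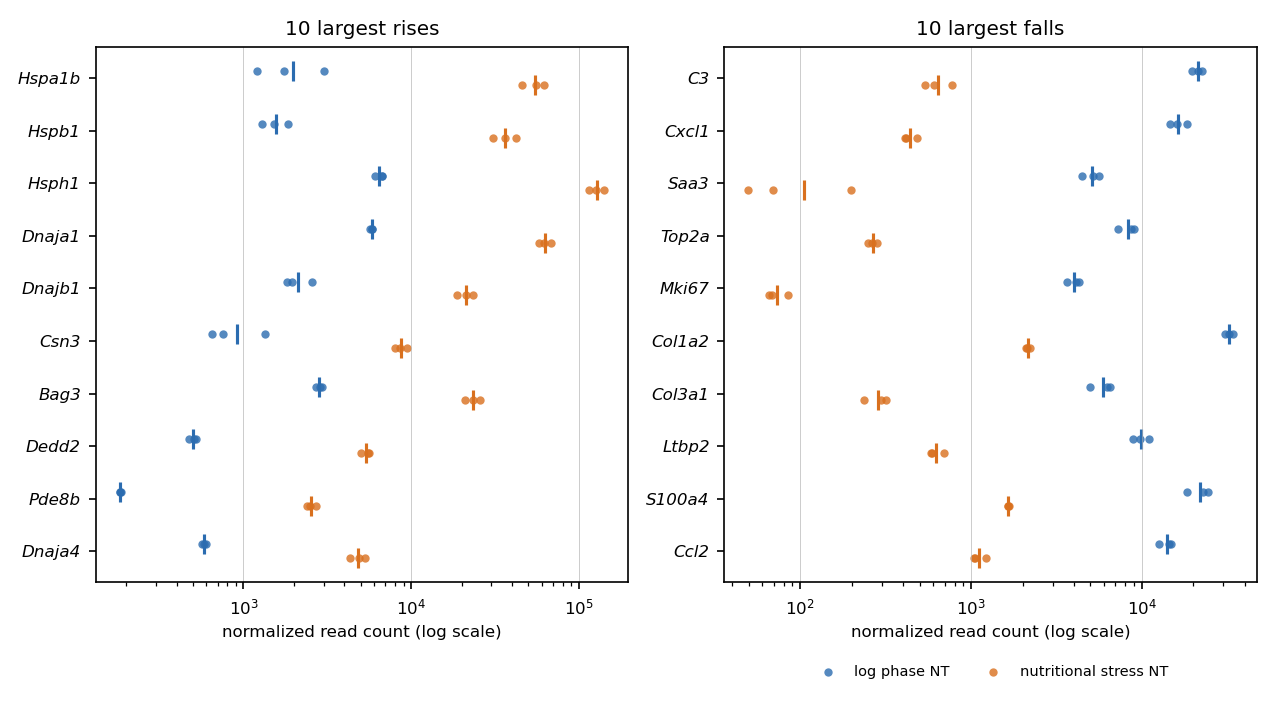
Normalized read counts (x axis, log scale) of the 10 largest rises (left) and 10 largest falls (right) in each of 3 log phase NT (blue) and 3 nutritional stress NT (orange) libraries, with dots for libraries and ticks for means. Only genes without overlap of the groups could be among these 20, and 74.6% of all genes did not overlap.

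The other genes among the 10 largest rises were Csn3, Dedd2 and Pde8b. Csn3, kappa-casein, rose from 1346, 653 and 758 to 7989, 9402 and 8521 (2.95 ± 0.16). Dedd2, a death effector domain protein of the nucleolus and nucleus, rose from 473 to 520 up to 5040 to 5592 (2.89 ± 0.07). Pde8b, a cyclic AMP phosphodiesterase, was held tightly at 185, 183 and 186 in log phase and reached 2488, 2718 and 2401 under stress, 13.7 times as much (2.72 ± 0.07).

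Ribosomal protein genes rose as a group. Of 83 listed genes for cytosolic ribosomal proteins and elongation factors 75 had a value, and 55 rose while none fell, with a median of 0.81 against -0.01 for all genes. The size of this rise depends on the scaling, since with quantile normalization the median was 0.44 and 26 rose. With each library centred on its median it was 0.96 and 63 rose. Rpl30 of the large subunit rose from 24012, 24289 and 21521 to 57405, 61861 and 50540 (1.27 ± 0.09) and Rps27 of the small subunit from 16144 to 18144 up to 40731 to 44836 (1.27). The large subunit had 31 of 44 genes higher, the small subunit 21 of 27 and the elongation factors 3 of 4. Their summed counts were 2473318 to 2636799 in log phase and 4236680 to 4639977 under stress. Many of these genes have processed pseudogenes, so their counts are uncertain to the extent that reads were split or dropped. Among genes for mitochondrial ribosomal proteins 1 of 71 was higher and 2 were lower, with a median of -0.07 that became 0.09 on centring. Mrps6 rose by 0.80, and Mrpl17 and Mrpl21 fell by 0.81 and 0.76.

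**Figure D3:**
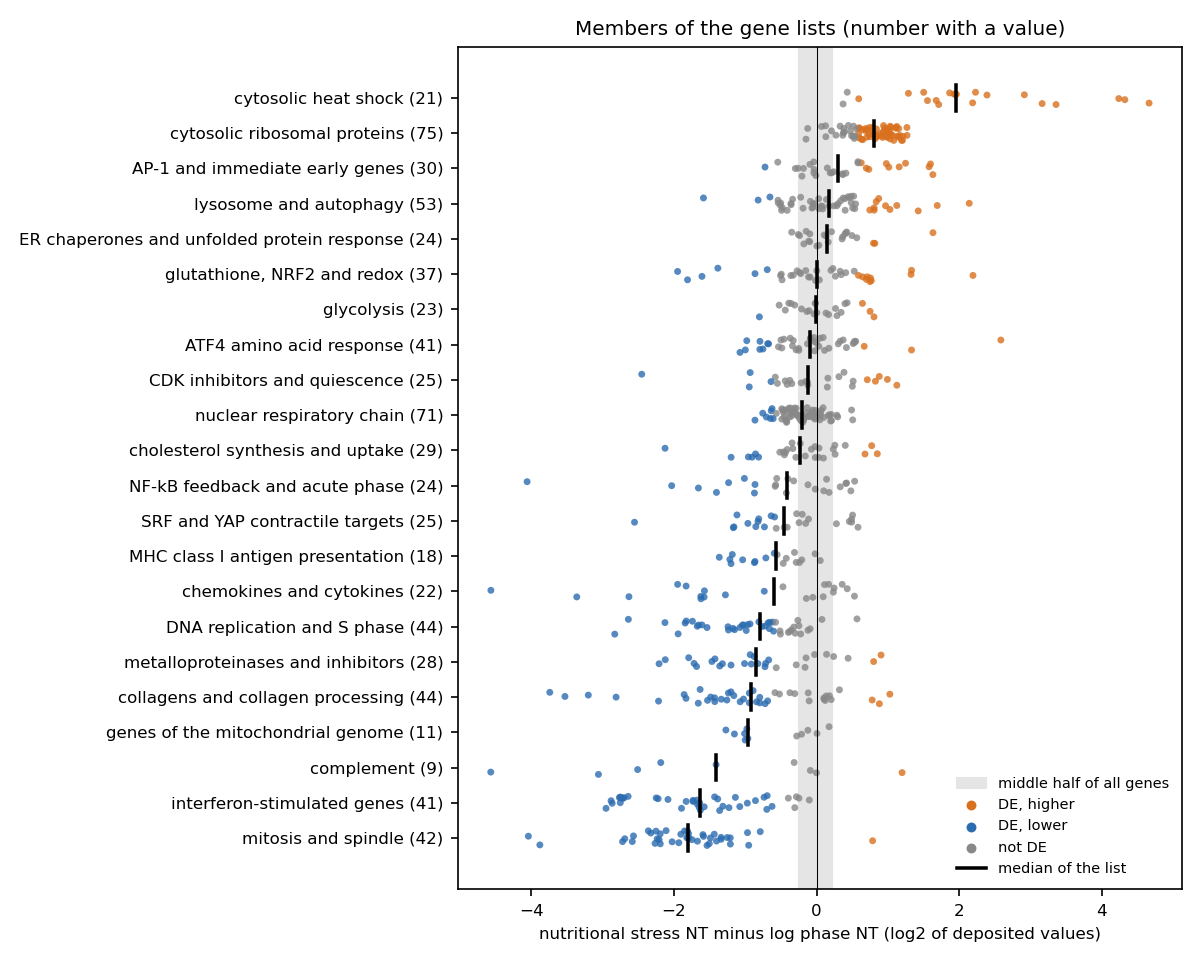
Difference between nutritional stress NT and log phase NT (x axis, log2) for each measured member of 22 gene lists (y axis, number of members in parentheses). Points are genes, orange or blue where DE and grey otherwise, black bars are list medians and the grey band spans the quartiles of all genes: heat shock and ribosomal protein genes sit at the top right, mitotic and interferon-stimulated genes at the bottom left.

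Mitosis genes fell nearly without exception. Of 44 listed genes 42 had a value, 41 fell and 1 rose, with a median of -1.80, against 9.9% of all genes that fell. Top2a, topoisomerase II alpha, which untangles sister chromatids, had 7204, 8928 and 8592 normalized counts in log phase and 250, 281 and 265 under stress, 31.1-fold lower (-4.04 ± 0.13). Mki67, the proliferation antigen Ki-67, went from 3656, 4123 and 4286 to between 65.4 and 85.0, 55.2-fold lower (-3.88 ± 0.14). By role, 12 of 13 kinases and regulators fell (median -1.49), all 19 spindle, kinetochore and cytokinesis genes (-1.90) and all 10 chromosome and anaphase genes, from -0.79 to -4.04. The exception was Pttg1, securin, the inhibitor of separase, which rose from 916, 915 and 997 to 1749, 1919 and 1789 (0.79 ± 0.06, adjusted p 2.37e-09).

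DNA replication genes fell in 29 of 44 measured members, and none rose (median -0.79, or -0.63 on centring, where 23 fell and 1 rose). Mcm3 and Mcm5, subunits of the replicative helicase, fell from 2280 to 2961 down to 161 to 182 (-2.83 ± 0.07) and from 1230 to 1702 down to 60.7 to 79.8 (-2.64 ± 0.09). Origin licensing had 12 of 16 genes lower, nucleotide synthesis 5 of 7, polymerases and clamp factors 6 of 12, and cyclins and E2F factors 6 of 9. Gins2, of the same helicase, differed by 0.57 and was not DE.

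Regulators of the G1 phase changed in both directions, where 8.22% of all genes rose and 9.9% fell. Among 25 CDK inhibitor and quiescence genes 5 rose and 4 fell (median -0.13, or 0.03 on centring each library on its median). Cdkn1a and Cdkn1b, the inhibitors p21 and p27, differed by -0.15 and -0.13 and were not DE. Bcl6, a transcriptional repressor, rose from 1269 to 1347 up to 3098 to 3281 (1.13) and Irs2, an insulin receptor substrate, by 0.99. Gas1, a gene named for its high level in growth-arrested cells, fell 12.0-fold, from 1471, 2067 and 2198 to 190, 129 and 159 (-2.45 ± 0.17), and Gas2 fell by 0.94. In the list of G1 cyclins and Myc targets 1 of 18 rose and 2 fell (median -0.02, or 0.14 on centring). Ccnd1, cyclin D1, fell from 30780, 34139 and 33788 to 13586, 12803 and 13076 (-1.30 ± 0.06). Npm1, nucleophosmin, rose by 0.65, which was not DE with quantile normalization, and Nop58, of the box C/D snoRNPs, fell by 0.67, which was not DE on centring.

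Promoters of 2 mitosis genes are shown with the cell cycle homology region, searched as TTTGAA on both strands and marked in capitals. Top2a lies at chr11:99024140-99024439 and Cdc20, the activator of the anaphase-promoting complex, at chr4:118437294-118437593, both on the minus strand. Cdc20 fell by 1.82.
Top2a: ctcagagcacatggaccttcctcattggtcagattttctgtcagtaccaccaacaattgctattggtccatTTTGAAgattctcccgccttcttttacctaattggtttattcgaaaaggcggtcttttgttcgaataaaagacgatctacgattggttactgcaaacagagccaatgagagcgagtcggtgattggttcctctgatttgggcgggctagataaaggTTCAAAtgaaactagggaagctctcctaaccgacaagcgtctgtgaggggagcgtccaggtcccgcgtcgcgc
Cdc20: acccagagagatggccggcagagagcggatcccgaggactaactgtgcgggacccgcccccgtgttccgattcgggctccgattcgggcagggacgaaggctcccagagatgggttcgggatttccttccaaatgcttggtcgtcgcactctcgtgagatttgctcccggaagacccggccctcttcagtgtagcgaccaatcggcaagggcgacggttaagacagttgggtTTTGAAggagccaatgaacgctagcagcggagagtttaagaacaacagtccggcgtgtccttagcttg
These letters stood in 26 of the 34 mitosis genes with a promoter in the table, 76.5%, against 20.2% of all genes. The CCAAT box, searched as CCAAT on both strands, stood in 26 of 34 as well, against 41.1% of all genes. Among 36 replication genes 19.4% held TTTGAA and 58.3% held CCAAT.

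Interferon-stimulated genes fell in most members. Of 41 measured members 36 fell and none rose, with a median of -1.64. Oas2, a sensor of double-stranded RNA, went from 6329, 6289 and 7273 normalized counts to 594, 732 and 556 (-2.95 ± 0.16), and Irf7, the factor that amplifies type I interferon, from 3391, 3465 and 3542 to 249, 274 and 253, 13.4-fold lower (-2.88 ± 0.08). By role, 16 of 19 antiviral effectors, 8 of 9 sensors and factors, and 12 of 13 modifiers and GTPases fell. Stat2, a transducer of type I interferon signals, fell by 1.31. Irf9 (-0.39), Rsad2 (-0.30), Trim25 (-0.28), Mx2 (-0.25) and Oasl1 (-0.10) were not DE. Several of these genes have close copies, such as Ifit3 beside Ifit3b, and their counts are uncertain.

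The promoter of Isg15, a ubiquitin-like modifier that fell by 2.75, is shown with the interferon-stimulated response element, searched on both strands as GAAA repeated after 2 free bases and marked in capitals where overlapping matches run together. It lies on the minus strand at chr4:156200769-156201068.
Isg15: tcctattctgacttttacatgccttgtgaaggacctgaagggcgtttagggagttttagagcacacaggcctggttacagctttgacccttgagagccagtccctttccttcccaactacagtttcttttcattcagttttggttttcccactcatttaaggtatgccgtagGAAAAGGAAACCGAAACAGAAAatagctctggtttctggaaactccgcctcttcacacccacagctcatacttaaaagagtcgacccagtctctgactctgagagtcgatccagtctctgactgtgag
The element stood in 15 of the 29 interferon-stimulated genes with a promoter in the table, 51.7%, against 3.99% of all genes, and in 8.82% of mitosis genes.

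MHC class I antigen presentation genes fell in 9 of 18 measured members and rose in none (median -0.57). The peptide supply had 7 of 11 genes lower, led by Psmb8, an immunoproteasome subunit, from 1402 to 1446 down to 376 to 439 (-1.36 ± 0.06). The heavy and light chains had 2 of 7 lower, H2-T23 among them, which fell 4.57-fold (-1.21).

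On the deposited scale C3 and Cxcl1 had the largest falls, although in ratios of normalized counts other genes, such as Mki67, fell more. C3, the central complement component, went from 21330, 19575 and 22544 normalized counts to 605, 539 and 773, 33.1-fold lower (-4.57 ± 0.20, adjusted p 3.74e-13). C1s1, a protease of the classical pathway, fell 11.3-fold (-3.06), and in all 5 of 9 measured complement genes fell. Clu, clusterin, an extracellular chaperone and complement inhibitor, was the one that rose, from 174, 174 and 175 to 568, 853 and 658 (1.20 ± 0.10). Cxcl1, a neutrophil chemokine, went from 18377, 16076 and 14579 to 418, 412 and 484, 37.3-fold lower (-4.56 ± 0.16), and Ccl2, a monocyte chemokine, from 12624, 14883 and 14354 to 1041, 1056 and 1227 (-3.36 ± 0.13). Of 22 measured chemokine and cytokine genes 11 fell and none rose (median -0.60, with 2 higher on centring), with 4 of 5 CXC chemokines, 5 of 8 CC and CX3C chemokines and 2 of 9 cytokines lower. In the list of NF-kB feedback and acute phase genes 8 of 24 fell and none rose (median -0.41, with 2 higher on centring). Saa3, a serum amyloid, went from 5587, 4461 and 5204 to 49.8, 69.5 and 197, of which stress replicate 3 was the highest (-4.06 ± 0.23). Vcam1, an adhesion molecule for leukocytes, fell 5.03-fold (-2.03).

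Collagen genes fell in 28 of 44 measured members and rose in 3, with a median of -0.92. Type I collagen, the main protein of bone matrix, was among the largest falls. Col1a2 went from 30502, 34020 and 32304 normalized counts to 2218, 2137 and 2100, 15.0-fold lower (-3.74 ± 0.13), and Col1a1 from 15121, 17678 and 17004 to 1475, 1576 and 1613, 10.7-fold lower (-3.20 ± 0.20). Col3a1, its fibrillar partner, fell 20.9-fold (-3.53 ± 0.17). Fibrillar chains had 7 of 10 genes lower, other chains 10 of 15 and processing enzymes and chaperones 11 of 19. The members that rose were Serpinh1, the collagen chaperone HSP47, from 22661 to 27595 up to 47213 to 52704 (1.03), Col11a2, from 20.7 to 27.1 up to 149 to 170 (0.88, 6.98 times), and P4ha2, a prolyl hydroxylase (0.78). Serpinh1 is also a heat shock gene by background, and with quantile normalization its rise was not DE.

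Proteases of the matrix and their inhibitors fell together. Of 28 measured genes 18 fell and 2 rose (median -0.85), with 7 of 11 matrix metalloproteinases, 8 of 14 ADAM and ADAMTS genes and all 3 TIMP genes lower. Timp2 went from 40386, 46571 and 48204 to 9645, 9599 and 9263 (-2.21 ± 0.11) and Timp1 from 2483 to 2782 down to 396 to 421 (-2.12 ± 0.12). The rises were Adamts6 (0.90) and Adamts1 (0.80). S100a4, a calcium-binding protein of migrating cells, fell 13.2-fold, from 18274, 24271 and 22692 to 1665, 1640 and 1636 (-3.50 ± 0.15).

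The TGF-beta and BMP list had 6 of 43 genes higher and 12 lower, against 8.22% and 9.9% of all genes, with a median of 0.01. Ltbp2, a latent TGF-beta binding protein of the matrix, went from 8904, 9770 and 10971 to 594, 580 and 690, 15.9-fold lower (-3.51 ± 0.18), and Tgfbi, a matrix protein induced by TGF-beta, fell 6.54-fold (-2.46). Smad7, the inhibitory SMAD, rose from 1499 to 1571 up to 4071 to 4744 (1.37) and Inhba, an activin subunit, 2.85 times (1.36). The list of contractile genes and of SRF and YAP targets had 11 of 25 genes lower and none higher (median -0.45). Centring each library on its median gave 8 lower and 5 higher for the whole list. Without centring, 8 of 14 contractile genes fell (median -0.61), and 3 of 11 YAP and SRF targets fell (median -0.11). Acta2, smooth muscle actin, went from 1286, 836 and 867 to 17.5, 24.9 and 21.8, 46.6-fold lower (-2.55 ± 0.15), and Tpm2, a tropomyosin, fell by 1.17.

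Integrins and focal adhesion genes were mixed, with 5 of 38 higher and 9 lower (median -0.11, or 0.04 on centring). Of all genes 8.22% rose and 9.9% fell. Itga7 rose 3.37 times (1.33) and the adaptor Bcar1 by 0.99. Itgb3, of the vitronectin receptor, went from 1032, 1042 and 1119 to 162, 182 and 210 (-1.65) and Nid2, a basement membrane nidogen, fell by 1.36. In the osteoblast list 1 of 14 rose and 5 fell, in the chondrocyte list 3 of 9 rose and 1 fell. Runx2, the master factor of osteoblasts, rose from 2337, 2198 and 2372 to 5718, 5515 and 5644 (1.19 ± 0.07), whereas all DE genes for matrix and late products fell. Ogn, a small proteoglycan, fell 18.3-fold (-2.27 ± 0.26) and Tnfrsf11b, osteoprotegerin, the decoy receptor that restrains osteoclasts, went from 638, 664 and 701 to 94.3, 71.5 and 81.6 (-1.62). Sox9, the chondrocyte factor, rose 1.68 times (0.72), and Col9a3 rose by 0.77. Col11a1 fell by 0.68, which was not DE with either of the other scalings.

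Genes of the mitochondrial genome fell in part. Of 11 with a value 6 fell and none rose (median -0.96). The complex III subunit mt-Cytb went from 59595, 60808 and 60859 to 24413, 26536 and 23762 (-1.27 ± 0.09), and mt-Nd1, of complex I, from 62394 to 71637 down to 28700 to 32119 (-1.15). The 6 genes were mRNAs for complex I, cytochrome b and Atp8, while mt-Nd3 (-0.28) of complex I and mt-Co1 (-0.12) and mt-Co2 (-0.21) of complex IV were not DE. Nor were the ribosomal RNAs mt-Rnr1 (0.01) and mt-Rnr2 (0.18), which a selection on poly(A) catches only in part. Mitochondrial genes overlap and are read from both strands, and the strand of the reads is not given in the sources used here, so neighbours may share reads. Of 71 respiratory chain genes of the nucleus 7 fell and none rose (median -0.20), and 7 of 71 is near the 9.9% of all genes that fell. Centring each library on its median gave 2 lower and 2 higher. Ndufa4 and Ndufa5 fell by 0.86 and 0.75.

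Glycolysis and hypoxia genes changed in few members, where 18.1% of all genes were DE. Of 23 glycolysis genes 3 rose and 1 fell (median -0.01, or 0.15 on centring), and of 21 hypoxia genes 3 rose and 1 fell (median 0.06). Without log phase replicate 1 these medians were 0.08 for glycolysis and 0.20 for hypoxia. Pfkl, a phosphofructokinase, rose by 0.75 ± 0.18 and Eno1, enolase, fell by 0.80. Gapdh was at 750 to 870 normalized counts in log phase and 1327 to 2232 under stress (0.81), and since it has many pseudogenes its count is uncertain. Ankrd37 rose from 310, 159 and 158 to 756, 776 and 644 (1.15) and Kdm3a, a histone demethylase, by 0.82. Ero1l, an ER oxidase, fell by 0.70, with 13271, 6618 and 6371 in log phase and 5308, 4758 and 4912 under stress, and its call was lost without log phase replicate 1, as it was with array weights and on centring. Txnip, an inhibitor of glucose uptake, was at 1343, 353 and 225 in log phase and 401, 471 and 428 under stress and was not DE (-0.16 ± 0.28). Log phase replicate 1 alone lay above the stressed libraries, and without it the difference was 0.37, which is under 1.5-fold and not DE. In its list, of MondoA factors and targets, none of 7 rose and 2 fell, Klf10 (-0.86) and Arrdc3 (-0.66), of which Arrdc3 was not DE on centring. Both are among the 4 measured targets (median -0.54), while none of the 3 factors was DE (median 0.49). The median of that list was -0.16, and 0.03 without log phase replicate 1.

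Sterol genes changed in both directions, and 20 of 29 were not DE. Of 29 measured 3 rose and 6 fell (median -0.23), where 8.22% of all genes rose and 9.9% fell, with 2 of 18 synthesis enzymes lower, 4 of 7 uptake and regulation genes lower and 1 higher, and 2 of 4 efflux genes higher. Nr1h2, the liver X receptor beta, rose from 3537 to 3560 up to 6624 to 6634 (0.85), and Npc1l1, a sterol importer, from 2.1 to 10.4 up to 63.8 to 92.0 (0.77). In fatty acid synthesis 3 of 16 genes fell and none rose, among them Elovl6 (-1.40) and Fads2 (-1.22), an elongase and a desaturase. In fatty acid oxidation and lipid storage 5 of 25 rose and 6 fell. All DE genes of entry and oxidation fell, 5 of 12, with Hadha of the trifunctional protein at -1.12, and all DE genes of lipases and droplets rose, 3 of 8, with Hilpda at 0.84. Ppargc1a, the coactivator PGC-1 alpha, rose from 95.9, 79.7 and 101 to 959, 876 and 877, 9.81 times (1.89 ± 0.06). Angptl4, an inhibitor of lipoprotein lipase, fell 5.39-fold (-1.54).

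Lysosome and autophagy genes rose in 11 of 53 measured members and fell in 3 (median 0.18), where 8.22% of all genes rose and 9.9% fell. Gla, alpha-galactosidase A, went from 1193, 1309 and 1283 to 6219, 6932 and 6382 (2.14 ± 0.07) and Atg9b, a lipid scramblase of autophagosome formation, from 472 to 595 up to 2245 to 2419 (1.69). Naglu, a hydrolase of heparan sulphate, fell 3.58-fold (-1.58) and Scarb2, the receptor that brings glucocerebrosidase to lysosomes, by 0.82. Under quantile normalization 11 rose and 6 fell, and on centring 18 rose and 2 fell.

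In the glutathione, NRF2 and redox list 10 of 37 genes rose and 6 fell (median 0.00), against 8.22% and 9.9% of all genes. Hmox1, haem oxygenase, rose from 14058, 8010 and 7932 to 39675, 51508 and 44988 (2.19 ± 0.16). Nqo1, a quinone reductase and a classical NRF2 target like Hmox1, went the other way, from 4993, 5373 and 4719 to 1217, 1069 and 1019, 4.56-fold lower (-1.95 ± 0.10). Mgst3, a glutathione transferase, fell by 1.81. Among aldehyde dehydrogenases 1 of 15 rose and 2 fell. Aldh3a1 went from 11687, 15708 and 15218 to 31203, 30150 and 29286 (1.08 ± 0.10), Aldh1l2, of mitochondrial folate metabolism, fell 2.86-fold (-1.41) and Aldh18a1, of proline synthesis, by 0.75.

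In the list of p53 targets and BCL2 family genes 4 of 26 rose and 4 fell, against 8.22% and 9.9% of all genes. Plk3, a stress-induced polo-like kinase, rose 3.32 times (1.56) and Bcl2l11, the proapoptotic BIM, from 780, 843 and 949 to 1846, 1999 and 2052 (0.99 ± 0.08). Gtse1, a p53 inhibitor of G2 phase, fell 10.2-fold (-2.03) and the death receptor Fas from 782 to 1150 down to 172 to 220 (-1.46). The IGF list had 5 of 16 genes higher and 3 lower. Igf2bp1, an mRNA-binding protein, rose 3.56 times (1.60), while the binding proteins Igfbp7 and Igfbp6 fell 13.4-fold (-2.53) and 6.82-fold (-1.96). Among 18 growth factor genes 1 rose, Fgfr1 (0.89), and 3 fell, with Pdgfrb from 6407, 6584 and 6950 down to 1177, 1197 and 1205 (-2.24 ± 0.10) and the EGF receptor ligand Ereg by 1.51. Wnt signalling genes were mixed, with 4 of 30 higher and 5 lower (median -0.07, or 0.09 on centring). The Dkk-1 receptor Lrp6 rose 1.89 times (0.86) and Wnt9a by 0.65, while Dkk3, a relative of Dkk-1, went from 2189, 2552 and 2741 to 811, 775 and 812 (-1.37 ± 0.11).

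Markers of stem-like osteosarcoma cells were split, with 3 of 17 higher and 3 lower, against 8.22% and 9.9% of all genes. Ly6a, the stem cell antigen Sca-1, fell 20.7-fold, from 3716, 3565 and 3685 to 169, 202 and 158 (-3.24 ± 0.14), and Cd44 fell by 1.12, whereas Cd24a rose by 1.36 and Alcam by 1.21. Of 8 genes that the study names, 7 had a value, and mouse Dkk1 had none. Sox2, a pluripotency factor, rose from 1306, 1427 and 1574 to 3625, 3473 and 3483 (1.15 ± 0.08), and Nsd1, a histone methyltransferase, fell from 1771, 1808 and 1841 to 918, 926 and 911 (-0.81 ± 0.06). Aldh1a1, which detoxifies aldehydes, was at 32.9, 19.2 and 33.9 normalized counts in log phase and 18.3, 19.7 and 18.0 under stress, and the difference of -0.12 ± 0.06 did not pass the test (adjusted p 0.085). The counts of Aldh1a1 are low, where the deposited values flatten differences. Hsd17b4 (-0.56), S1pr2 (-0.48), Arpc2 (0.24) and Setd7 (0.05) were not DE. With log2 normalized counts, 1 added, and with voom, 2 of these 7 genes were lower in place of 1. These counts do not say which gene was gained, and it is not to be read as Aldh1a1.

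The same change of culture condition was compared in cultures with scrMo and with DkkMo, which share no library with the NT cultures or with each other. There 1766 genes were DE with scrMo (10.7% of the genes tested, 4.38% higher and 6.28% lower) and 2726 with DkkMo (16.5%, 6.24% higher and 10.2% lower). Of the 1361 genes higher under stress in NT cultures 376 were also higher with scrMo, which is 27.6% of the NT genes and 51.8% of the scrMo genes, and 674 with DkkMo, 49.5% and 65.2%. Of the 1639 lower genes 659 were also lower with scrMo (40.2% and 63.4%) and 1178 with DkkMo (71.9% and 69.6%). Genes DE in opposite directions numbered 23 of the 3000 with scrMo, 6 of them higher and 17 lower in NT, and 1 in each direction with DkkMo. The 3 kinds of culture shared 346 higher and 646 lower genes.

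The difference between the changes was tested as an interaction, NT change minus the change under a morpholino. It passed the threshold in 1810 genes against scrMo (10.9% of the genes tested, 5.37% above and 5.55% below 0) and in 649 against DkkMo (3.92%, 2.38% and 1.53%). Among mitosis genes the median change was -1.80 in NT, -1.31 with scrMo and -1.85 with DkkMo, and 12 and 1 of 42 passed the interaction. Heat shock genes rose by a median of 1.95, 0.88 and 1.58, and 19 of 21 rose more in NT than with scrMo while 1 did so against DkkMo. Interferon-stimulated genes had medians of -1.64, -0.17 and -0.92, and 36 of 41 fell more in NT than with scrMo and 23 more than with DkkMo. Ribosomal protein genes had medians of 0.81, -0.02 and 0.29, and 66 of 75 passed against scrMo and 32 against DkkMo, all in the direction of a larger change in NT. Collagen genes had medians of -0.92, -0.53 and -1.06. Genes of the mitochondrial genome had medians of -0.96 in NT, 0.68 with scrMo, where 6 of 11 rose and 1 fell, and -0.57 with DkkMo, where 5 fell and none rose. The stressed scrMo libraries stood apart in the share of reads on the mitochondrial genome, at 5.30% to 5.80% against 1.54% to 2.68% in the other 15 libraries, and the part of this in the scrMo comparison was not tested.

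The levels of the lists show where these differences lay. Interferon-stimulated genes were already lower in log phase with scrMo, at a mean of -0.99 on the log2 scale relative to log phase NT, and with DkkMo at -0.41, whereas under stress the means were -1.61 in NT, -1.22 with scrMo and -1.34 with DkkMo. Mitosis genes reached -1.85, -1.78 and -1.67 under stress, and stood at -0.436 in log phase with scrMo and at 0.165 with DkkMo. Collagen genes reached -0.94, -0.849 and -0.881 under stress, and stood at -0.355 in log phase with scrMo and at 0.097 with DkkMo. Heat shock genes stood at 2.21, 1.48 and 2.01 under stress, and at 0.41 in log phase with scrMo. Ribosomal protein genes were at 0.76 in stressed NT cultures, with replicates at 0.71, 0.84 and 0.72, and at 0.21 and 0.28 with scrMo and DkkMo.

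**Figure D4:**
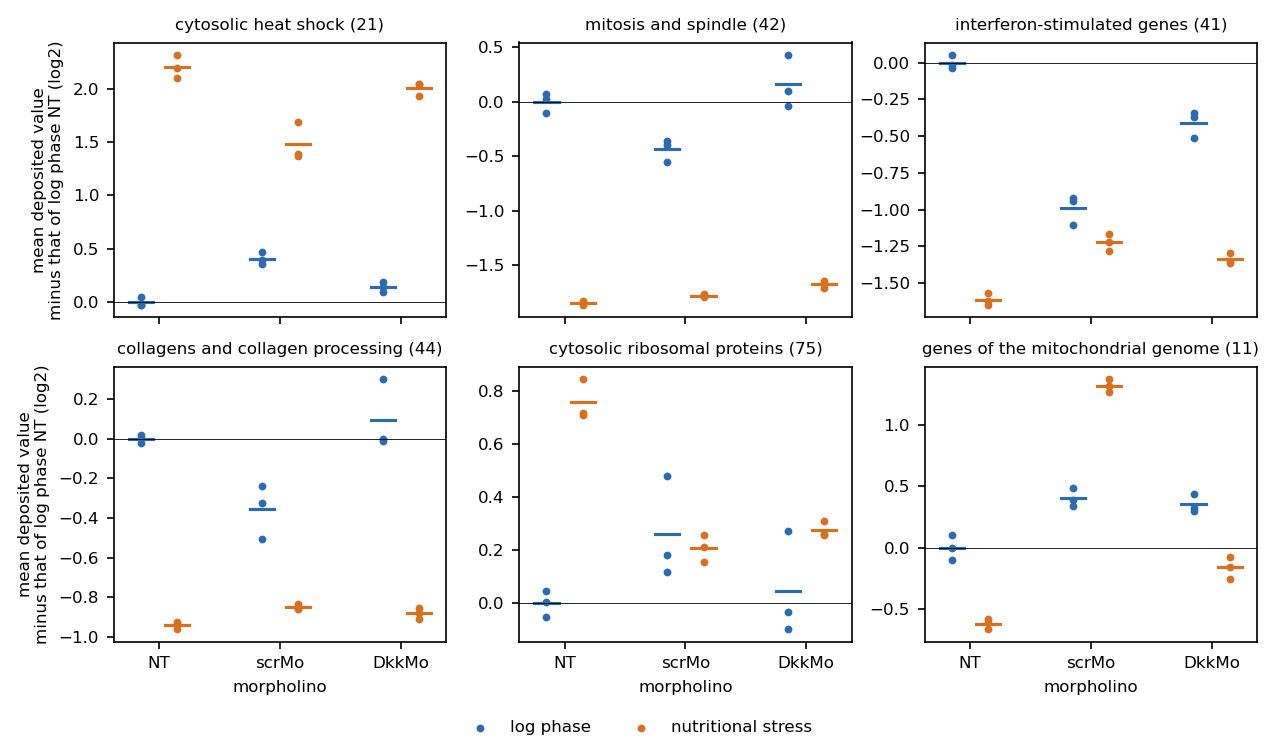
Mean deposited value of 6 gene lists in each of 18 samples minus the mean of the log phase NT samples (y axis, log2), by morpholino (x axis). Dots are libraries, bars are means of 3, blue is log phase and orange is nutritional stress: the stressed NT cultures lie highest for heat shock and ribosomal protein genes and lowest for interferon-stimulated genes and collagens.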

How the data were processed

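RNA of 18 samples of cultured MOSJ-Dkk-1 cells was sequenced after selection on poly(A), 3 in each of 6 groups, and the 6 NT samples were compared here. The authors aligned reads to GRCm38 with HISAT2 2.1.0, counted them per gene with featureCounts (Subread 2.0.0) and deposited log2 values from DESeq2's variance stabilization. The strand setting is not given in the sources used here. The table held 16576 rows, of which the last 14 were left out because their values were out of place between libraries (within-group range over 6 log2 units). No filter on low values removed any of the remaining 16562 genes.

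A gene without reads had the deposited value 7.2, and from the steps above it whole reads were recovered for 100.0% of the values within 0.1 of a read. Normalized counts and depths rest on these reads, which numbered 25.9 M to 44.8 M per library. Deposited values were tested with limma 3.58.1 (R 4.3.3) in a fit of all 18 libraries, with Benjamini-Hochberg adjustment over all genes. Python 3.11.15, NumPy 2.4.6, pandas 2.3.3, SciPy 1.17.1 and matplotlib 3.10.9 were used, and the steps were tested on simulated data.

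Groups came from the labels. Same-numbered NT libraries of both conditions were not more alike than others (mean correlation of deviations -0.03, and 0.01 for others). Log phase replicate 3 had no same-numbered stress library, so these values cannot show that the replicates were unpaired. Stress replicates 2 and 3 carry the same number but differed by more than counting noise and were kept as 2 samples. Their chi-square per degree of freedom was 6.86, against 3.35 to 16.3 for other pairs of NT replicates. The highest values were those of the pairs with log phase replicate 1. The spread between stress replicates 2 and 3 cannot show that they came from separate cultures. With the 2 averaged as 1 sample the NT comparison gave 2980 DE genes. The 39 gene lists and 9 marker lists, the samples and the rule for named genes were chosen with earlier results of these data known. The rule named the 10 largest rises and falls among DE genes without overlap and with a mean normalized count of at least 50, predicted genes left out, then the 2 largest DE rises and falls of each list, the genes named in the study and 3 genes in each direction for each interaction. Other genes in the text, such as Hsf2, Xbp1, Hspa5, Asns, Dusp4, Stat2, Isg15, Cdc20 and P4ha2, were chosen after their values were seen. Promoter sequences were taken from RefSeq, GRCm38.p6. Alternatives were other scalings, other scales, voom on the recovered reads, array weights, a replicate block, other thresholds and each NT replicate left out. Some genes are not reported here. The tumour samples were not used here. Human Dkk-1 is not among the mouse genes of the table.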

Additional observations from a re-analysis of the deposited data

Results flagged for a closer look

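The change from log phase to nutritional stress differed between cultures without morpholino and cultures with one, by the interaction (NT change minus the change under the morpholino, log2, limma). It passed the threshold in 1810 genes against scrMo and in 649 against DkkMo. Among the largest values against scrMo were Pde8b (2.682), Prl2c3 of the prolactin family, which has close copies (2.524), and the phosphatase gene Dusp5 (2.385). In the other direction were the mitochondrial tRNA genes mt-Tp (-3.6) and mt-Tq (-2.737), whose reads may come from the longer transcripts they lie on. Of the 10 largest rises in NT cultures, 9 others passed against scrMo: Hspa1b (1.499), Hspb1 (1.775), Hsph1 (1.926), Dnaja1 (1.197), Dnajb1 (1.564), Csn3 (0.882), Bag3 (1.416), Dedd2 (1.927) and Dnaja4 (0.823). Of the 10 largest falls, 8 passed: C3 (-2.3), Saa3 (-2.27), Top2a (-1.232), Mki67 (-1.031), Col1a2 (-2.394), Col3a1 (-1.778), Ltbp2 (-1.413) and S100a4 (-0.857). Both sets were picked by their NT change, which is also part of the interaction, so a larger change in NT was favoured in advance.

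Against DkkMo the largest positive values were those of the immediate early gene Egr1 (1.878), Txnip (1.624) and Pfkl (1.6). The largest negative ones were those of the interferon-stimulated genes Gbp9 (-1.902), Oas2 (-1.688) and Ifi44 (-1.454). Dedd2 (0.817), Pde8b (1.491), Saa3 (-1.095), Col1a2 (-0.893) and Col3a1 (-0.835) changed more in NT cultures than with DkkMo. These genes were also picked by their NT change. Cxcl1 fell less in NT cultures, with an interaction of 1.049. Log phase levels differed between the 3 kinds of culture, as for interferon-stimulated genes with scrMo, and the part of these starting levels in the interactions was not tested.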

How the results depend on the processing

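The number of DE genes in NT cultures (3000) moved with the fold threshold and the scale. The deposited values flatten low counts. With log2 normalized counts, 1 added, it was 6251 (2790 higher, 3461 lower), with 10 added it was 5856 (2627 and 3229), and with voom 6318 (2834 and 3484). With scrMo, log2 counts with 1 added gave 4477 (2266 higher, 2211 lower) and voom 4486 (2272 and 2214). With DkkMo the same settings gave 5854 and 5861, and the interactions gave 4220 and 4242 against scrMo, and 2215 and 2187 against DkkMo. Without a fold threshold 10864 genes passed (5213 and 5651), over 2-fold 987 (348 and 639), and of the genes above the median level 1984 (909 lower). Centring each library on its median gave 2244 higher and 1120 lower, quantile normalization 1410 and 1445. Leaving out 1 NT replicate gave 2959 to 3117 DE genes, 1750 to 1898 against scrMo and 601 to 682 against DkkMo. The replicate block gave 3016, and all 133 named DE genes kept their call. The depth difference between the NT groups, with 1 replicate left out, was -2.819 to 2.668 M reads.

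Of the 133 named DE genes 128 kept their call on centring, where Nop58, Ero1l, Arrdc3, Col11a1 and Jun lost it. With quantile normalization 130 kept it, and Npm1, Serpinh1 and Col11a1 lost it. Ero1l lost it with array weights and without log phase replicate 1. None of the named DE genes changed sign under the alternatives run. Txnip, which was not DE, turned from -0.16 to 0.37 without log phase replicate 1.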
